A study of Mus musculus with 2 samples.

Results

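The Rab GTPases were examined in sorted mouse CD4+ T cells, as all probe sets annotated to exactly 1 gene symbol made of Rab, a number and at most 1 further letter. This gave 132 of the 45101 probe sets on the array, for 59 of 18193 genes. The pattern itself uses no signal.

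Rab proteins are small GTPases that mark the membranes of the cell. In the GTP-bound form each sits on its own organelle through a lipid-modified tail and recruits tethers, motors and fusion factors, and hydrolysis of GTP releases it again. In T cells, Rab proteins carry antigen receptors and adhesion molecules between endosomes and the surface and guide secretory vesicles to the contact with other cells.

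The cells came from DEREG mice, which carry a transgene that expresses a diphtheria toxin receptor fused to GFP from the Foxp3 promoter. Both groups bear this transgene. The GFP-positive group is CD4+ GFP+ FoxP3+ cells and the GFP-negative group is CD4+ GFPneg FoxP3neg cells, each enriched by negative selection and sorted to over 99% purity. Each group was measured on 1 Affymetrix Mouse Genome array from 6 µg of total RNA, and the sources used here name neither organ nor treatment, nor how old or how many the mice were. There are no replicates, so no test was possible, and each difference is one between 2 arrays. In bulk RNA, fewer cells of a type and less RNA per cell cannot be told apart.

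Values are MAS5 signals on a linear scale. A signal floor of 73.2 was set from genes of other tissues, signals below it were raised to it, and differences were taken as the log2 signal of GFP-positive cells less that of GFP-negative cells. A difference with 1 signal below the floor is a bound, written as at least N-fold. A gene is represented by its brightest probe set. Signals of different probe sets, and so of different genes, cannot be compared with each other.

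Foxp3, the gene behind the sort, had a signal of 504 in GFP-positive against 173 in GFP-negative cells, the direction of the labels, and so also lay above the floor on the array labelled FoxP3neg. All 5 regulatory T cell markers were above the floor on both arrays and higher in GFP-positive cells, with a summed signal of 9371.5 in GFP-positive against 4535.6 in GFP-negative cells, and Ikzf2, for instance, had 4435 and 2250 in the same order. Of the T cell markers, 5 of 5 on the array lay above the floor, and all 5 were lower in GFP-positive cells, with a median of −0.61 log2 and a summed signal of 9951 in GFP-positive against 11432 in GFP-negative cells. Above the floor lay 0 of 5 markers of mast cells and basophils, 2 of 5 B cell markers, 3 of 8 myeloid and dendritic cell markers, 3 of 5 CD8 T and NK cell markers and 2 of 6 platelet and erythroid markers. The B cell markers above the floor differed in opposite directions, Cd79b with 222 in GFP-positive against 70.8 in GFP-negative cells and Cd22 with 98.3 and 235 in the same order. The 3′ to 5′ signal ratio, which rises with RNA degradation, was 5.30 for Actb in GFP-positive against 3.57 in GFP-negative cells, and 9.27 and 6.24 for Gapdh in the same order. The part of these marker shifts and of RNA quality in the differences below was not tested.

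Few Rab genes differed much between the sorted populations. Of the 59 genes, 40 lay above the floor on at least 1 array, 34 of them on both. In GFP-positive cells Rab38 passed 2-fold upward and no Rab gene did so downward. That is 1 of 40 genes (2.5%), beside 2.93% of all 9430 genes above the floor, of which 1.47% were higher and 1.45% lower. At 1.5-fold, 4 Rab genes were higher and 1 lower, or 12.5%, beside 15.1% of all genes, with 7.54% in each direction. The Rab shares are thus near the background. Bounds were counted at their value, so a gene with 1 signal below the floor may differ by more than counted.

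The 40 differences were evenly divided, with 20 higher and 20 lower in GFP-positive cells. Their median was 0.01 log2, with quartiles of −0.25 and 0.21, against a median of −0.02 and quartiles of −0.26 and 0.23 over all genes. Because 6 of the 40 genes entered through 1 array alone, the other 34 are also given, with 18 higher, 16 lower and a median of 0.05 log2. By probe set, 73 of the 132 lay above the floor, with a median of 0.02 log2. The 57 of them above it on both arrays had a median of −0.0037 log2, with 28 higher and 29 lower. A fold of 2 was passed upward by 2 of the 73, beside 257 of all 15691 probe sets above the floor (1.64%). Downward it was passed by none, beside 1.36%. The 2 belong to Rab38 and Rab12, and that of Rab12 is a bound, with its GFP-negative signal below the floor.

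**Figure D1:**
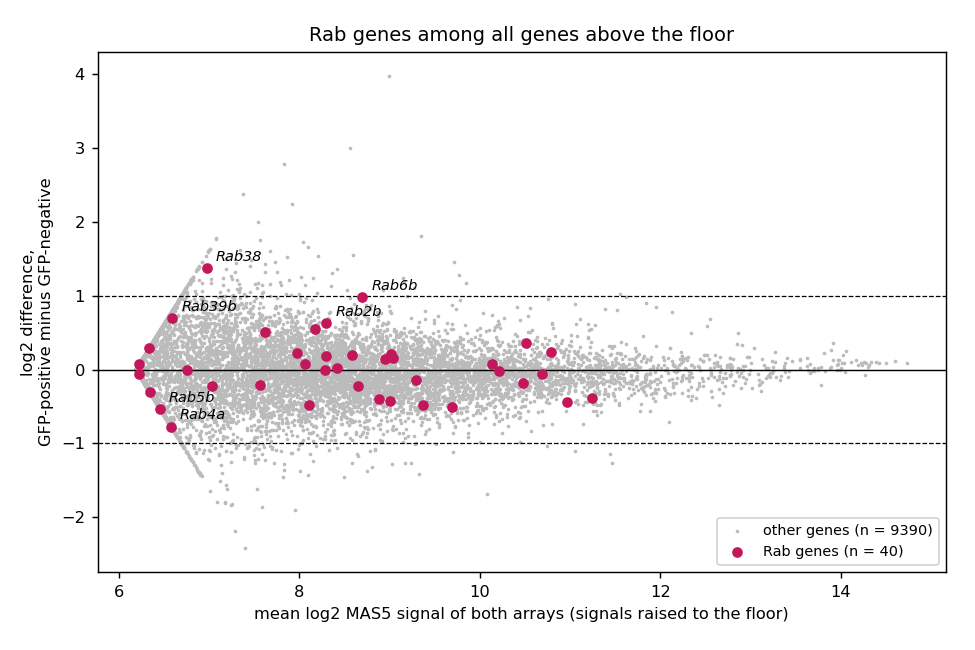
Each point is a gene with at least 1 signal above the floor, with its mean log2 signal over both arrays on the horizontal axis and its log2 difference, GFP-positive minus GFP-negative, on the vertical axis; dashed lines mark 2-fold. The 40 Rab genes lie within the cloud of other genes, with Rab38 above the upper line at 1.37 and Rab6b just under it at 0.99.

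Probe sets of the same gene give a measure of scatter on these arrays. Their differences had a standard deviation of 0.38 log2 over 7332 probe sets of 2914 genes with both signals above the floor, and of 0.41 over the 39 such probe sets of 16 Rab genes. Differences beyond 0.38 were found for 15 of the 40 Rab genes (37.5%), 6 higher and 9 lower, against 32.0% of all genes. This scatter holds no variation between mice, sorts or hybridisations. Technical noise and differences between transcripts of a gene cannot be told apart in it.

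Promoter sequences are shown for Rab6b and Rab6a, the isoforms with the widest gap between their differences, and for the extremes of base composition described below. Promoter stretches from RefSeq (GRCm38.p6) were matched here to 48 of the 59 genes, with the first listed kept where a gene had several. The 250 bases before the annotated start are given 5′ to 3′ on the strand of the gene, and capitals mark CG dinucleotides and the forkhead motif TGTTTAC. Rab6b lies on the plus strand (chr9:103111824-103112073), Rab6a on the plus strand (chr7:100607336-100607585), Rab39b on the minus strand (chrX:75578232-75578481) and Rab17 on the minus strand (chr1:90967668-90967917).
Rab6b: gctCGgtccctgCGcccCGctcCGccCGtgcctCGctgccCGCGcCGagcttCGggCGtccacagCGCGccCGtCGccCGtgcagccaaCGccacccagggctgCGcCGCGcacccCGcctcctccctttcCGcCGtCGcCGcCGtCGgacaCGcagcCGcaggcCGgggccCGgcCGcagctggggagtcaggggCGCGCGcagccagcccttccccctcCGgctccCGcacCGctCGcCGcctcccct
Rab6a: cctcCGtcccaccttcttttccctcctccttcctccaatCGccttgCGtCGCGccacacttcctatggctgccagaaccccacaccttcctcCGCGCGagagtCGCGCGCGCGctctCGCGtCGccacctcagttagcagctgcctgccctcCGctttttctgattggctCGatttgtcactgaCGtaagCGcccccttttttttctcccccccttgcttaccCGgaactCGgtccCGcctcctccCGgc
Rab39b: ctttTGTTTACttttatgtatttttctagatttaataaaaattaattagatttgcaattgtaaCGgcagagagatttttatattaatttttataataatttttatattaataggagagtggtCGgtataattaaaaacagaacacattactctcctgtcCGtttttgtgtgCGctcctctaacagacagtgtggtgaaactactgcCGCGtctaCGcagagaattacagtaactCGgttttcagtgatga
Rab17: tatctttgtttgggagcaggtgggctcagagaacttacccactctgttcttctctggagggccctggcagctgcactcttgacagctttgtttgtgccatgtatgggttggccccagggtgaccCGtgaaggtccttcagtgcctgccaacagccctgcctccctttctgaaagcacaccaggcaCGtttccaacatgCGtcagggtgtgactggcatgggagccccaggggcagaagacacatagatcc

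The Rab6b stretch holds 40 CG dinucleotides and is 80.8% G or C, and that of Rab6a holds 24 at 62.8%. Rab39b has 8 CG dinucleotides at 31.6% and Rab17, which was below the floor on both arrays, has 3, as does Rab42. Over the 30 Rab genes above the floor on both arrays with a sequence, the median was 20.5 CG dinucleotides, against 11 for the 13 Rab genes below the floor on both arrays. All array genes were divided alike, with medians of 17 and 7, so this is no property of the Rab family.

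The forkhead motif, the letters TGTTTAC read on both strands, stood in 1 of the 48 Rab stretches, that of Rab39b, 246 to 240 bases before the start. It stood in 3.09% of all 27025 promoters of this length, taken as 1 per gene symbol. The ETS motif CCGGAAG, read on both strands, stood in 3 Rab stretches (6.25%), those of Rab11a, Rab24 and Rab8a, against 7.05% of all promoters. These 3 are among the 30 Rab genes above the floor on both arrays with a sequence (10%), against 16.9% of all array genes above it on both. The GC box GGGCGG, also read on both strands, stood in 33 Rab stretches (68.75%), against 32.9% of all promoters. Where both signals exceeded the floor, it stood in 70% of Rab stretches and 61.6% of all. Where both lay below the floor, the shares were 61.5% (8 of 13 Rab stretches) and 38.3% in the same order. A match is a description of the letters only.

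Rab proteins of the endoplasmic reticulum and Golgi went both ways. All 10 of the 15 genes above the floor had signals above it on both arrays, with 5 higher and 5 lower in GFP-positive cells and a median of 0.04 log2. Rab6b, an isoform known mainly from neurons, had a signal of 585 in GFP-positive against 295 in GFP-negative cells, 1.98-fold higher. Rab6a, the broadly expressed isoform of retrograde Golgi traffic, had 412 in GFP-positive against 542 in GFP-negative cells, 1.32-fold lower. The gap between the isoforms was 1.38 log2, the widest of the 8 isoform families with at least 2 genes above the floor.

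Other probe sets bear differently on this pair. For Rab6a a further probe set was also lower, with 201 in GFP-positive against 382 in GFP-negative cells, or −0.93 log2. For Rab6b a further probe set was lower, with 131 in GFP-positive against 156 in GFP-negative cells, and one above the floor on 1 array was at least 1.26-fold higher, with 92.2 and 28.2 in the same order. An average over all its probe sets, in which any below the floor on both arrays enters as no difference, gave 0.27 log2 for Rab6b.

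Rab2b and Rab2a, which act between the endoplasmic reticulum and the Golgi, also lay on opposite sides. Rab2b had 392 in GFP-positive against 254 in GFP-negative cells, 1.55-fold higher, and Rab2a had 2124 and 2779.9 in the same order, 1.31-fold lower. Their probe sets disagreed within each gene. A further Rab2a probe set gave 196 in GFP-positive against 122 in GFP-negative cells and another 364 and 282, both higher in GFP-positive cells, and a further Rab2b probe set gave 151 and 175, which is lower. With probe sets averaged, the Rab2a difference was 0.10 and that of Rab2b 0.15 log2. Probe sets below the floor on both arrays entered these averages as no difference. Among the probe sets above the floor, the opposition of these isoforms depends on the probe set.

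Rab1a, which drives transport out of the endoplasmic reticulum, had 1928 in GFP-positive against 1637 in GFP-negative cells (0.24 log2), and its isoform Rab1b had 176 and 204 in the same order (−0.21 log2). Rab18, found on the endoplasmic reticulum and lipid droplets, had 1155 in GFP-positive against 1095 in GFP-negative cells, and Rab33b, a Golgi protein that binds the autophagy factor Atg16l1, had 313 in each. Rab43, of the Golgi, had 337 in GFP-positive against 295 in GFP-negative cells, and its 3 probe sets all lay between 0.19 and 0.27 log2. Rab19 had 697 in GFP-positive against 986 in GFP-negative cells, 1.41-fold lower, from its only probe set. The remaining 5 genes placed here, Rab30, Rab33a, Rab34, Rab36 and Rab39, were below the floor on both arrays.

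**Figure D2:**
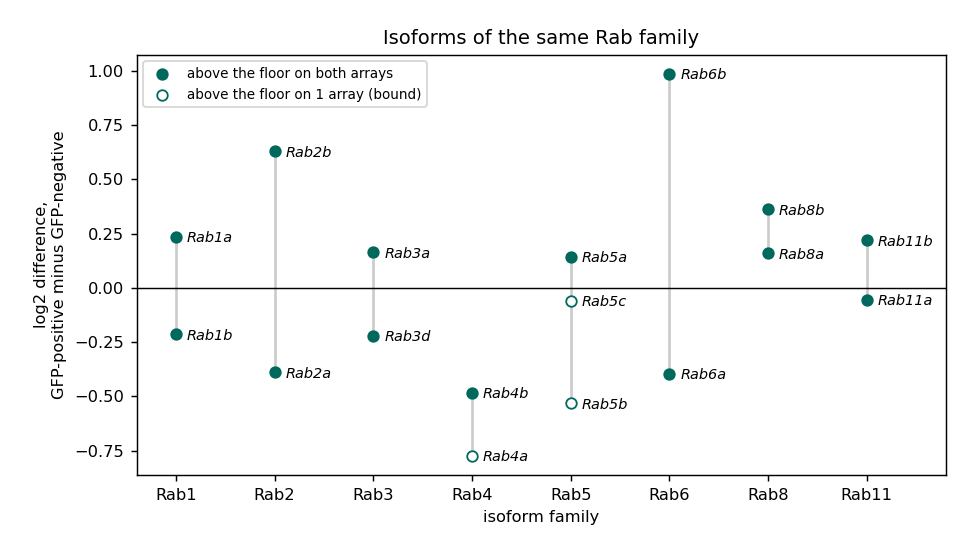
The log2 difference, GFP-positive minus GFP-negative, is plotted for each isoform above the floor in the 8 Rab families with at least 2 such isoforms; filled points had both signals above the floor and open points are bounds. Rab6 shows the widest gap at 1.38 log2, followed by Rab2 at 1.02, and the Rab8 isoforms lie 0.20 apart.

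Of 7 genes of the early endosome, 5 were above the floor, with 4 lower and 1 higher in GFP-positive cells and a median of −0.43 log2. Rab5b and Rab5c entered through the GFP-negative array alone, which fixed their direction. Of the other 3 genes, each with both signals above the floor, Rab21 and Rab22a were lower and Rab5a was higher, again with a median of −0.43 log2. Over all genes 4907 of 9430 were lower. The median kept its sign under all 7 alternative settings tried, from −0.48 to −0.18. As reported it is the value of Rab21, and so it was in every alternative except without a floor, where Rab22a gave it. The kept sign thus rests on single genes and is no measure of how stable the group is. Rab21, Rab22a and Rab5a stayed under 1.5-fold, and the differences of Rab5b and Rab5c are bounds, at −0.63 and −0.60 log2 when no floor was set.

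Rab21, which carries integrins through early endosomes, had 443 in GFP-positive against 595 in GFP-negative cells, 1.34-fold lower, and a further probe set had 98.5 and 94.2 in the same order. Rab22a, which acts between early and recycling endosomes, had 234.5 in GFP-positive against 326 in GFP-negative cells, 1.39-fold lower. Its 4 probe sets disagreed, with 3 lower and 1 higher, the one exception at 312 in GFP-positive against 227 in GFP-negative cells.

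The Rab5 isoforms drive fusion of early endosomes. Rab5a had 519 in GFP-positive against 470 in GFP-negative cells (0.14 log2). Rab5b had 68.2 in GFP-positive cells, below the floor, and 106 in GFP-negative cells, at least 1.45-fold lower. The other Rab5b probe set was below the floor on both arrays, with 66.9 and 67.6 in the same order. Rab5c had 50.1 in GFP-positive against 76.2 in GFP-negative cells, at least 1.04-fold lower. Rab20 and Rab31 were below the floor on both arrays.

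Rab proteins of the recycling endosome went both ways, with 3 of 7 measured genes higher and 4 lower and a median of −0.06 log2. The sign of this median turned with the probe sets used, to 0.06 log2 with probe sets averaged and 0.26 log2 when those able to match several transcripts were left out. Rab25 and Rab4a entered through 1 array alone, and of the other 5 genes 2 were higher and 3 lower. Rab4b, of the fast recycling route, had 562 in GFP-positive against 785 in GFP-negative cells, 1.40-fold lower, from its only probe set. Rab4a, the other isoform, had 59.3 in GFP-positive cells, below the floor, and 125 in GFP-negative cells, at least 1.71-fold lower, the sole Rab gene counted past 1.5-fold in this direction. Its other probe set had 100 in GFP-positive against 8.1 in GFP-negative cells, at least 1.37-fold higher, so the direction for Rab4a is unsettled.

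Rab14, which links the Golgi and endosomes, had 1723 in GFP-positive against 2328 in GFP-negative cells, 1.35-fold lower. Of its 6 probe sets above the floor, 4 were lower and 2 higher, from −0.59 to 0.64 log2. Rab11a and Rab11b, of the slow recycling route, had 1621 in GFP-positive against 1684 in GFP-negative cells and 273 and 234 in the same order, differences of −0.06 and 0.22 log2. Rab35, which returns cargo such as the T cell receptor to the contact site of T cells, had 558 in GFP-positive against 484 in GFP-negative cells (0.21 log2).

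Rab25, an epithelial relative of Rab11, had 89.9 in GFP-positive cells and a signal of 15 in GFP-negative cells, at least 1.23-fold higher. Rab15 and Rab17 were below the floor on both arrays.

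**Figure D3:**
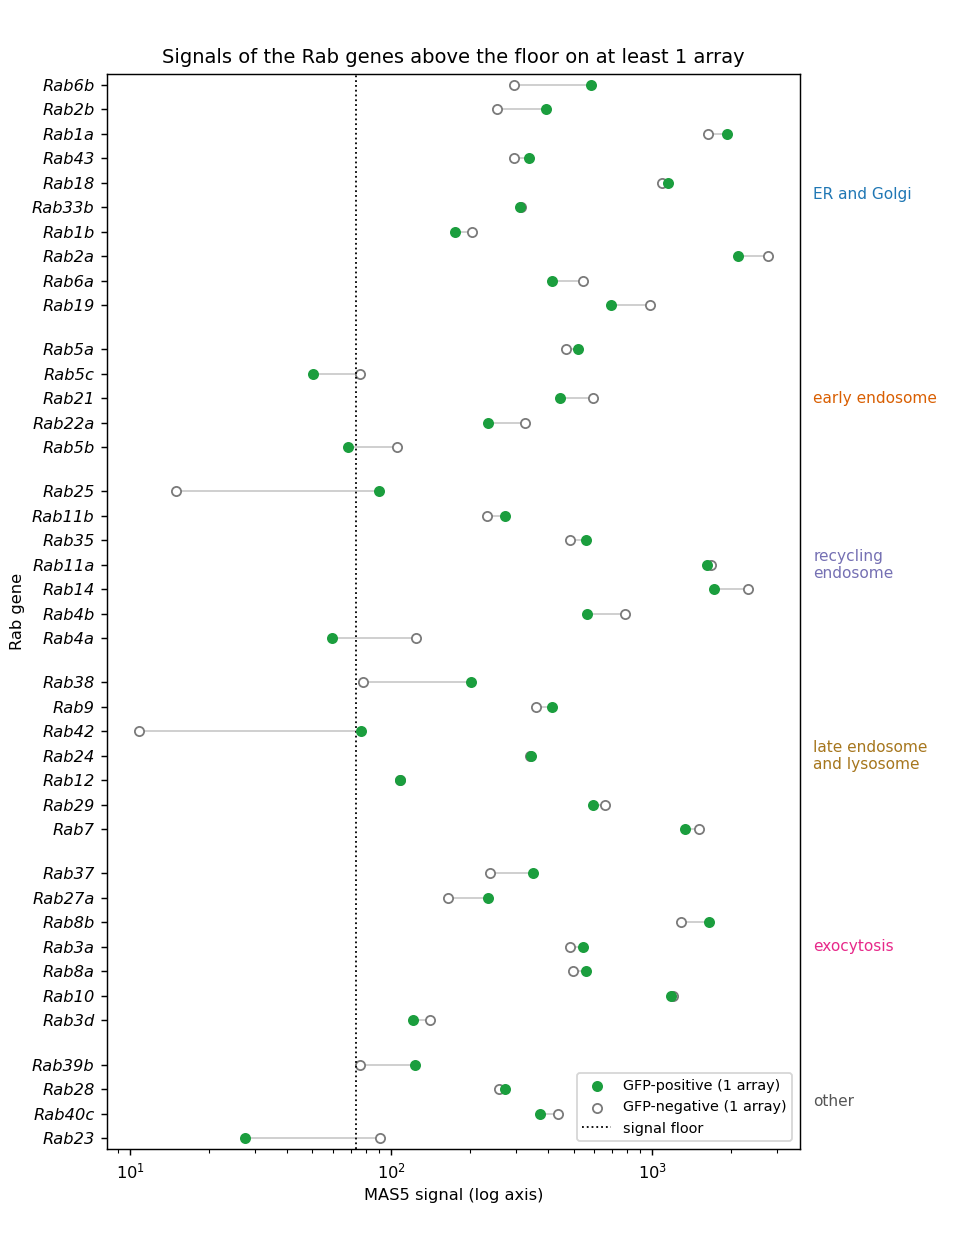
MAS5 signals (log axis) are shown for the 40 Rab genes with a signal above the floor, by organelle group, with 1 point for the GFP-positive array and 1 for the GFP-negative array; the dotted line is the floor of 73.2. For most genes the points lie close together, and the wide gaps of Rab25, Rab42 and Rab23 arise where 1 signal is below the floor; positions of different genes along the axis are not comparable.

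Genes of late endosomes, lysosomes and related organelles differed little, Rab38 excepted. Of 10 genes, 7 were above the floor, 4 higher and 3 lower, with a median of 0.02 log2 that became −0.01 after loess normalization and −0.04 when probe sets able to match several transcripts were left out. Rab42 entered through the GFP-positive array alone. Rab38, which supplies pigment enzymes to melanosomes and acts on other lysosome-related organelles, had 203 in GFP-positive against 78.4 in GFP-negative cells, 2.59-fold higher. This rests on a probe set of the type that can match several transcripts, and its GFP-negative signal lay just above the floor. The other Rab38 probe set was below the floor on both arrays, with 65.7 in GFP-positive against 67.2 in GFP-negative cells. Without probe sets of that type, Rab12 in place of Rab38 was the Rab gene past 2-fold. Rab32, the close relative with a shared role, was below the floor, with 6.6 in GFP-positive against 16.6 in GFP-negative cells.

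Rab7, the main regulator of fusion with lysosomes, had 1341 in GFP-positive against 1515 in GFP-negative cells (−0.18 log2), and a further probe set had 292 and 300 in the same order. Rab9, which returns receptors from late endosomes to the Golgi, had 413 in GFP-positive against 360 in GFP-negative cells (0.20 log2). Rab29, a Golgi and lysosome protein that recruits the kinase Lrrk2, had 596 in GFP-positive against 659 in GFP-negative cells. Rab24, associated with autophagy, had 344 in GFP-positive against 339.9 in GFP-negative cells, and a further probe set had 90 and 110.3 in the same order (−0.29 log2). On their representing probe sets, these 4 genes all lay within 0.20 log2 of zero.

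Rab12, which directs the transferrin receptor to degradation, had 107.8 in GFP-positive against 108.2 in GFP-negative cells. Its other probe set had 156 in GFP-positive against 47.5 in GFP-negative cells, at least 2.13-fold higher. Rab42 had 76.8 in GFP-positive against 10.8 in GFP-negative cells, at least 1.05-fold higher. Rab7b and Rab9b were below the floor on both arrays.

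Genes of exocytosis and secretory granules were mostly higher in GFP-positive cells, again by small amounts. Of 13 genes, 7 were above the floor on both arrays, 5 higher and 2 lower, with a median of 0.16 log2 and none past 1.5-fold. Over all genes 4520 of 9430 were higher. The median stayed between 0.08 and 0.26 log2 under all 7 alternative settings tried. As reported it is the value of Rab3a, whose probe set can match several transcripts. Rab3a also gave it after quantile and loess normalization and with probe sets averaged. With probe sets of that type left out, the median was 0.26 log2 over 6 genes. Markers of CD8 T and NK cells, which also secrete from granules, had a summed signal of 1006 in GFP-positive against 1502 in GFP-negative cells over 5 genes. Most of that sum is Nkg7, with 724 in GFP-positive against 1222 in GFP-negative cells. Klrd1 was higher, with 148.5 in GFP-positive against 103.5 in GFP-negative cells, and Cd8a and Ncr1 were below the floor on both arrays. The part of these cells in the differences was not tested.

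Rab37, known from regulated secretion, had 351 in GFP-positive against 239.5 in GFP-negative cells, 1.47-fold higher, and its other probe set had 236 and 208 in the same order. Rab27a, which docks lytic granules at the membrane of cytotoxic lymphocytes, had 236 in GFP-positive against 166 in GFP-negative cells, 1.43-fold higher. The other 3 probe sets of Rab27a were below the floor on both arrays. Averaged in, they enter as no difference and bring the gene to 0.13 log2. Its relative Rab27b, known from platelets and mast cells, had at most 26.8 on either array.

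Rab8b and Rab8a, which move vesicles from the Golgi to the surface, had 1657 in GFP-positive against 1289 in GFP-negative cells and 557 and 498.5 in the same order, differences of 0.36 and 0.16 log2. Rab10, which acts on the same route, had 1179 in GFP-positive against 1200.3 in GFP-negative cells, and its 3 probe sets all lay between −0.12 and −0.03 log2. The sign of the Rab10 difference turned with the scaling, up to 0.02 log2.

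The Rab3 isoforms act in regulated secretion of neurons and gland cells. Rab3a had 543 in GFP-positive against 485 in GFP-negative cells on a probe set that can match several transcripts, but its other probe set had signals of 3.6 and 10.8 in the same order. Rab3d had 121 in GFP-positive against 141.5 in GFP-negative cells (−0.22 log2), and its 4 probe sets ran from −0.46 to 0.45. Rab3b, Rab3c, Rab13, Rab26 and Rab44 were below the floor on both arrays.

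Of the Rab genes with another or a less defined site, Rab39b, known from neurons, had 123 in GFP-positive against 75.8 in GFP-negative cells, 1.62-fold higher. Its GFP-negative signal lay just above the floor, and its other probe set was below the floor on both arrays, with 33.9 and 1.8. Rab40c, which joins a ubiquitin ligase through its SOCS box, had 372 in GFP-positive against 435 in GFP-negative cells (−0.23 log2). Rab28, linked to cilia, had 274 in GFP-positive against 260.2 in GFP-negative cells. Rab23, a negative regulator of hedgehog signalling, had 27.6 in GFP-positive against 90.6 in GFP-negative cells, at least 1.24-fold lower, and Rab40b was below the floor.

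The 19 genes below the floor on both arrays had signals of 3 to 66.4 in GFP-positive against 4.8 to 60.4 in GFP-negative cells on their representing probe sets, and no fold is given for them. Many are known from epithelia, neurons or secretory cells, such as Rab3b, Rab3c, Rab17, Rab26 and Rab27b.

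Agreement within genes limited what could be read from a single probe set. Over 1 probe set was above the floor for 20 Rab genes, and in 8 of these the probe sets lay on opposite sides of zero by at least 0.5 log2. The 8 were Rab2a, Rab2b, Rab3d, Rab4a, Rab6b, Rab12, Rab14 and Rab22a. In 6 of the 20 all probe sets lay on the same side, Rab6a, Rab7, Rab10, Rab11b, Rab37 and Rab43. Of these 6, Rab6a was lower and Rab37 higher by more than the 0.38 log2 of scatter between probe sets, at −0.40 and 0.55 log2. Neither held under every setting. Rab6a was at −0.34 log2 after quantile and −0.36 after loess normalization, and Rab37 at 0.37 with probe sets averaged.

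**Figure D4:**
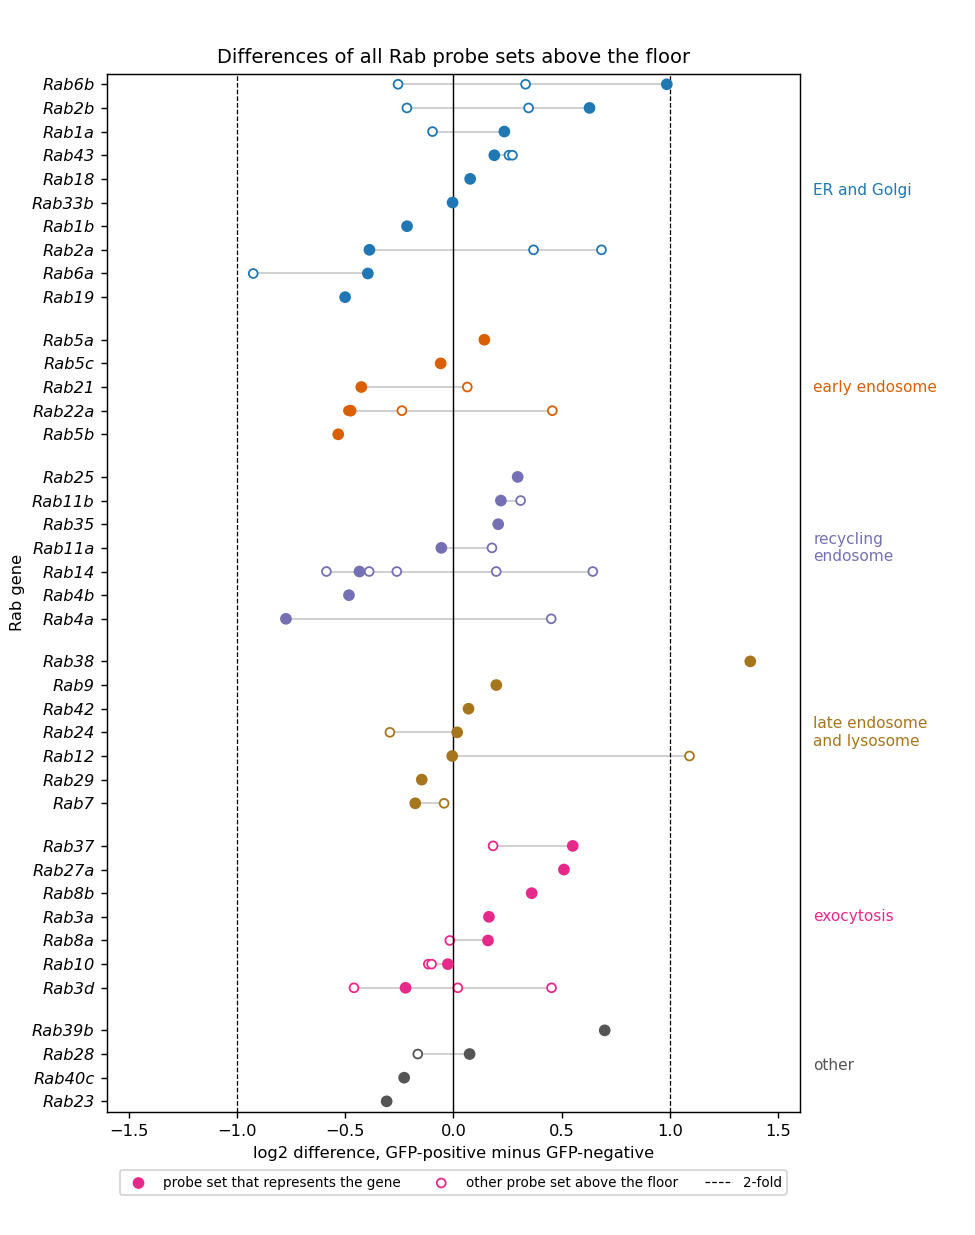
The log2 difference, GFP-positive minus GFP-negative, of all 73 Rab probe sets above the floor is plotted by gene; filled points represent the gene, open points are its other probe sets, grey lines span them and dashed lines mark 2-fold. Rab38 at 1.37 and the open point of Rab12 at 1.09 lie beyond 2-fold, and wide spans appear for Rab6b, Rab4a, Rab14 and Rab2a.

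Genes that act on or with Rab proteins were read from lists by role. Of 122 symbols listed, 115 were on the array and 81 above the floor, 37 higher and 44 lower in GFP-positive cells. Of all 9430 genes, 4520 were higher and 4907 lower. At least 2-fold differences were found for 1 of the 81, Eea1, which was lower, beside the 2.93% of all genes. Within 1.5-fold lay 92.6% of these genes, against 84.9% of all genes.

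Eea1, the tether that Rab5 recruits to early endosomes, had 119.5 in GFP-positive against 240.5 in GFP-negative cells, 2.01-fold lower, from its only probe set. With the floor doubled, the Eea1 difference was −0.72 log2, a bound that no longer passed 2-fold. Of the 28 effectors above the floor, 17 were lower and 11 higher, beside 4907 of all 9430 genes lower. The effector median was −0.03 log2. Rbsn, an effector of Rab4 and Rab5, had 176 in GFP-positive against 119.5 in GFP-negative cells, 1.47-fold higher. A further Rbsn probe set was also higher, with 102 in GFP-positive against 80.4 in GFP-negative cells. Another had 61.9, below the floor, and 80.3 in the same order, which is lower. Exoc5, a subunit of the exocyst that Rab-bearing vesicles use to reach the surface, had 274 in GFP-positive against 371 in GFP-negative cells, 1.35-fold lower. The other Exoc5 probe set was below the floor on both arrays.

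Chaperones and enzymes of prenylation attach the lipid tail and carry Rab proteins through the cytosol. Signals were lower for 5 of 6 of these genes, beside 4907 of all 9430 genes. Their median was −0.29 log2. That median was 0.06 log2 when probe sets that could match several transcripts were left out, but only 2 of the 6 genes then remained. Rabggta, the alpha subunit of the transferase that adds the lipid, had 198 in GFP-positive against 350.1 in GFP-negative cells, 1.77-fold lower. Its partner subunit Rabggtb had 1116 in GFP-positive against 1411 in GFP-negative cells, 1.26-fold lower, and is named here after its values were seen. Rabac1, which helps release Rab proteins from their chaperone, was 1.30-fold lower (279.9 in GFP-positive against 363 in GFP-negative cells), and Rabif, which binds nucleotide-free Rab proteins, was 1.34-fold higher (272 and 203 in the same order). That Rabif probe set can match several transcripts, and the others of this gene were below the floor on both arrays. The probe sets of Rabggta, Rabggtb and Rabac1 given here are also of a type that can match several transcripts.

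Exchange factors, which load Rab proteins with GTP, counted 13 higher and 14 lower genes of 27. Their median was −0.0014 log2, and its sign turned with the scaling. Trappc5, a subunit of the TRAPP complexes, had 580.4 in GFP-positive against 317.5 in GFP-negative cells, 1.83-fold higher, but its other probe set had 119 and 132 in the same order. Ric1, part of the exchange factor for Rab6, had 141 in GFP-positive against 94.3 in GFP-negative cells, 1.49-fold higher. The other Ric1 probe set was below the floor on both arrays. Dennd5a, a DENN domain protein, had 889 in GFP-positive against 618 in GFP-negative cells, 1.44-fold higher.

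GTPase activating proteins, which switch Rab proteins off, counted 12 higher and 8 lower genes of 20, and their median was 0.08 log2. Tbc1d7, also a subunit of the tuberous sclerosis complex, had 183 in GFP-positive against 99.7 in GFP-negative cells, 1.83-fold higher. The other Tbc1d7 probe set was below the floor on both arrays, with 4.3 and 3.4 in the same order. With the floor doubled, the Tbc1d7 difference was a bound of 0.32 log2. Rabgap1l had 2219 in GFP-positive against 1443 in GFP-negative cells, 1.54-fold higher, but its 5 probe sets above the floor ran from −0.52 to 0.62 log2. Tbc1d5, which acts on Rab7, had 159.9 in GFP-positive against 235 in GFP-negative cells, 1.47-fold lower. Tbc1d10a, named after its values were seen, had 144 in GFP-positive against 61.6 in GFP-negative cells, at least 1.97-fold higher.

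**Figure D5:**
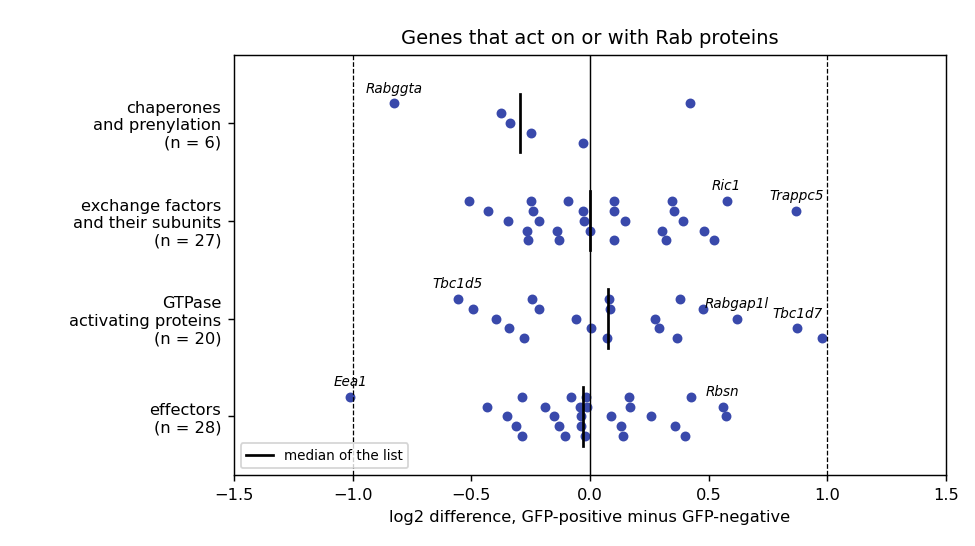
Each point is a gene that acts on or with Rab proteins, placed by its log2 difference, GFP-positive minus GFP-negative, in 4 lists by role; thick lines are the list medians and dashed lines mark 2-fold. Eea1 lies just beyond the line at −1.01, the other 80 genes lie inside it, and the list medians run from −0.29 for chaperones and prenylation to 0.08 for GTPase activating proteins.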

How the data were processed

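The deposited table holds 1 intensity per probe set and array, which MAS5 had summarised (per the submitters' processing notes); no source used here gives its version or the detection calls. The 2% trimmed mean was 150.0 on both arrays, so they had been scaled before deposit, and no further scaling was applied. Arrays were grouped by title. Probe sets were named by the platform annotation; all 59 Rab symbols matched the reference gene table.

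Members, organelle groups, lists and the rule for named genes were chosen with earlier results of these data known: every Rab gene may be named, and of the regulators those past 2-fold and the 3 per role with the largest difference above the floor on both arrays. The floor is the 90th percentile of 131 probe sets of 79 genes of other tissues, of 87 listed, a list rewritten here because the earlier one was not available; 16 of the 79 passed it. Steps ran in Python 3.11.15 with pandas 2.3.3, numpy 2.4.6 and statsmodels 0.14.6 (loess). Only the call of 2-fold differences was tested on simulated data, with larger true folds in genes well above the floor. Smaller differences, list medians and promoters were not part of that test. The number of arrays limits the precision. Alternatives covered the floor, scaling, probe set choice and fold.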

Additional observations from a re-analysis of the deposited data

How the results depend on the processing

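The count of Rab genes past 2-fold, 1 as reported, was 0 with the floor doubled, 16 without a floor, 0 with probe sets averaged, 5 at 1.5-fold, and 2 (Rab38 and Rab6b) after either loess or quantile normalization. Over all genes the count of 276 became 89 with the floor doubled, 5723 without a floor, 119 with probe sets averaged and 1422 at 1.5-fold. Without a floor all 59 Rab genes enter, the 19 added ones with both signals below it. The Rab38 difference was at least 0.47 log2 with the floor doubled, a bound because its GFP-negative signal then lay below the floor. With probe sets averaged it was 0.69 log2, under 2-fold. Probe sets below the floor on both arrays enter averages as no difference, which for Rab38 holds for its other probe set. Of 79 alternative values of 12 list medians, 61 kept their sign, among them all of the early endosome and of exocytosis, and 18 turned it. In most settings the early endosome median was the value of Rab21, and the exocytosis median that of Rab3a. Their kept signs are thus no measure of how stable these medians are. Without a floor the medians were −0.0037 log2 for Rab genes, −0.016 for Rab probe sets, −0.094 for the endoplasmic reticulum and Golgi, 0.075 for other sites, −0.023 for GTPase activating proteins and 0.039 for effectors. With probe sets able to match several transcripts left out they were −0.0037 for the endoplasmic reticulum and Golgi, 0.26 for recycling endosomes, −0.038 for late endosomes and lysosomes, 0.075 for other sites and 0.059 for chaperones and prenylation. Each of these lists then held fewer genes, with 2 of 6 left for chaperones and prenylation. With probe sets averaged they were 0.061 for recycling endosomes and 0.054 for exchange factors. For exchange factors the median was 0.047 after quantile and 0.028 after loess normalization, which gave −0.013 for late endosomes and lysosomes. With both signals required above the floor, a setting chosen after seeing the data, it was −0.0037 for Rab probe sets and 0.075 for other sites. For single Rab genes, 209 of 225 alternative values moved by less than the 0.38 log2 of scatter between probe sets or stayed past 2-fold. Of the rest, 14 moved further and 2 lost 2-fold. Many of the 225 could not move. A gene with both signals above the doubled floor does not change when the floor is doubled or removed. Averaging does not change a gene with 1 probe set, nor does leaving out probe set types change a gene represented by a kept type. The 209 are thus no measure of how stable the differences are. No paired analysis was possible because each group has 1 array. With 1 array per group no replicate could be left out, and signals near the floor limit what can be read for genes at that level.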
